A study of Mus musculus with 23 samples.

Results

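Collagen genes were followed through sorted endothelial cells and tumour cells of mouse breast tumours, with and without nintedanib. Every gene whose symbol is Col, a number, the letter a and a number was taken, which gave 44 of the 19938 genes measured. They fall into 11 fibrillar, 9 network-forming, 9 fibril-associated, 6 beaded filament (type VI), 4 transmembrane and 2 multiplexin collagens and 3 others, and 42 of the 44 lay at or above the 30th percentile of mean level over all genes, with Col28a1 and Col4a6 below it. Py2T cells, a murine breast cancer cell line, had been grown in the mammary fat pad of female FVB/N mice. Nintedanib, an inhibitor of the VEGF, FGF and PDGF receptor kinases, was given at 50 mg per kg body weight. The 23 arrays comprised endothelial cells after 21 days (n = 5) and 7 days (n = 3) of nintedanib and from untreated mice (n = 3), and tumour cells after 21 days (n = 5) and 7 days (n = 4) and from untreated mice (n = 3). All groups share the 1 cell line and the mouse strain, the untreated tumours had the size of the 21-day tumours, and no untreated tumours of the size of the 7-day tumours were analysed here. The labels call the replicates biological, and the sources used here do not name the surface markers of the cell sort. Levels are log2 signals as deposited, and a log2 difference of 1 is a doubling.

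Collagens are trimers of alpha chains wound into a triple helix, and each Col gene encodes 1 alpha chain. Fibrillar collagens such as type I, the main product of fibroblasts, form the ropes of connective tissue, while type IV forms the sheet-like network of basement membranes, the layer on which blood vessel endothelium rests. Multiplexins (types XV and XVIII) sit in or beside vessel basement membranes, type VI forms beaded filaments around cells, and fibril-associated collagens coat fibrils.

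The labelled cell types were set against their markers. Pecam1, which encodes an endothelial adhesion molecule, lay between 11.12 and 11.68 in the 11 endothelial arrays, against 3.79 and 4.77 in the 12 tumour cell arrays, and all 16 endothelial markers were higher in endothelial cells in all 3 comparisons between the cell types. The keratin gene Krt18 lay between 6.47 and 10.12 in endothelial arrays, against 10.37 and 11.20 in tumour cell arrays. The epithelial marker Epcam was low in both, at 4.08 to 5.76 in endothelial arrays and 3.97 to 5.26 in tumour cell arrays. Cdh1, the epithelial cadherin gene, was lower in endothelial than in tumour cells after 21 days (-1.55 ± 0.30, limma, adjusted p = 0.000462) and 7 days (-1.85 ± 0.36, 0.000558), and not called without treatment (-1.06 ± 0.38, 0.0613). The keratin genes Krt18 and Krt8 were called lower in endothelial cells in all 3 comparisons, and Epcam was called in none. The mean of 12 epithelial markers overlapped between the cell types, at 5.36 to 7.30 in endothelial and 6.12 to 6.76 in tumour cell arrays. Fibroblast markers were divided: Pdgfra, Pdgfrb and Dcn were lower in endothelial cells in all 3 comparisons, and Thy1 was higher after 7 days (3.19 ± 0.51, adjusted p = 9.21e-05) and without treatment (2.44 ± 0.55, 0.00304). Macrophage markers were uneven among the endothelial arrays: the mean of 17 markers was 7.34 in untreated replicate 1 and 7.32 and 6.56 in 21-day replicates 3 and 4, and between 4.43 and 5.90 in the other 8. The last of these 3 arrays, 21-day replicate 4, also had the highest mean of 12 epithelial markers of all arrays, 7.30, against 6.12 to 6.76 in the tumour cell arrays. In sorted bulk samples, fewer cells of a type and less RNA per cell cannot be told apart.

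**Figure D1:**
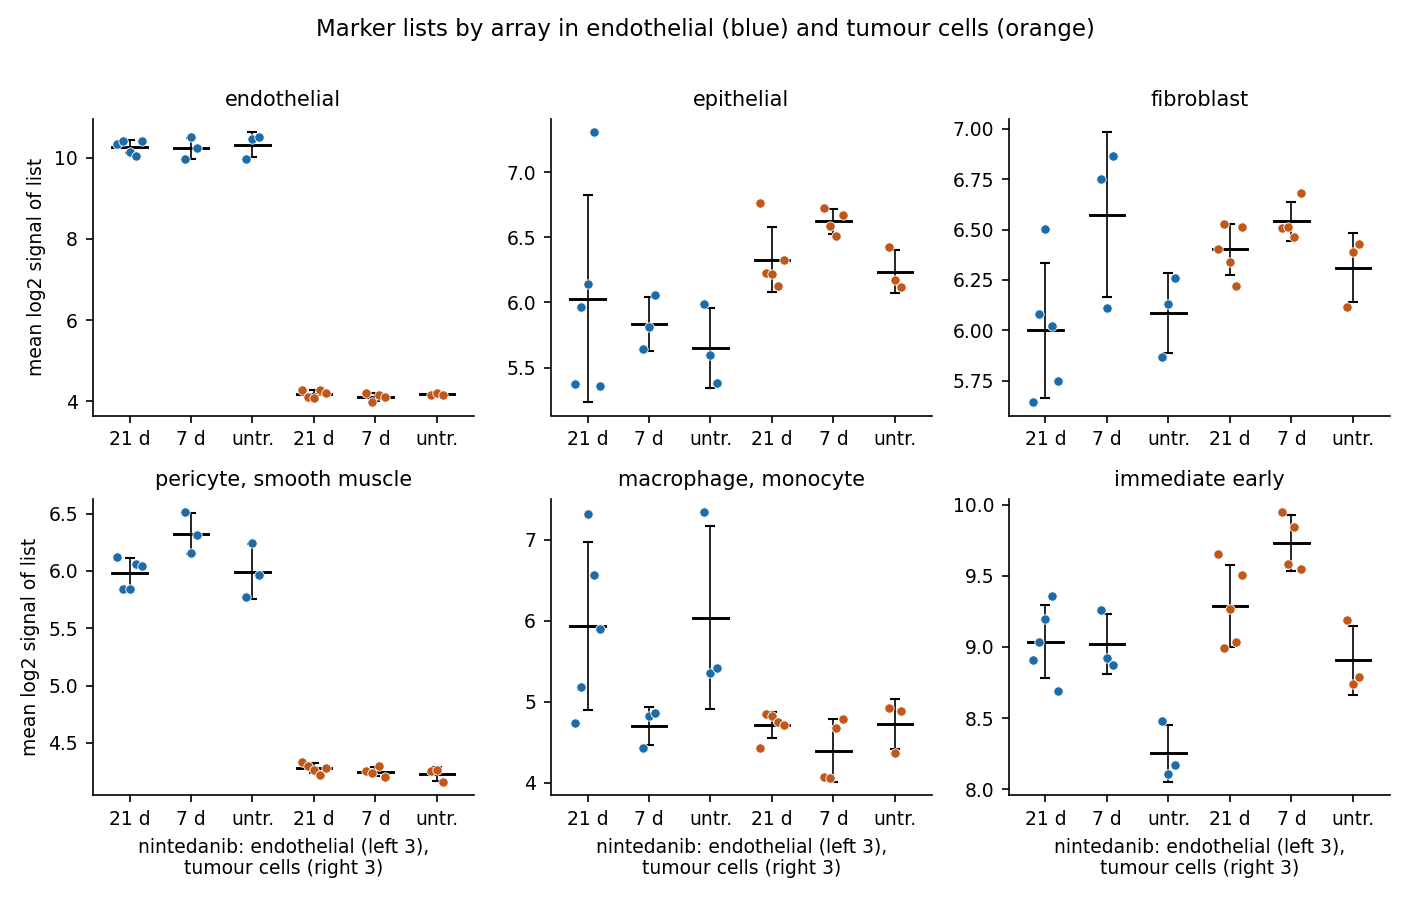
Mean log2 signal of 6 marker lists in each array, in endothelial cells (blue) and tumour cells (orange) after 21 or 7 days of nintedanib or untreated. Points are arrays, horizontal lines are group means and bars are SD. The mean of the endothelial markers is 9.97 to 10.51 in endothelial arrays, against 3.99 to 4.28 in tumour cell arrays, and macrophage markers reach 7.34 in untreated endothelial replicate 1.

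The largest differences in collagen expression lay between the cell types. The basement membrane genes Col4a1, Col4a2 and Col15a1 were 12.5 to 25.2 times higher in endothelial than in tumour cells in every treatment group, and Col18a1 and Col13a1 were 2.01 to 3.03 times higher. Col6a1, Col8a1 and Col4a5 were 2.48 to 4.01 times lower in endothelial cells. Counted over the class lists, 22 of the 44 collagens were called at an adjusted p under 0.05 after 21 days, 17 higher and 5 lower in endothelial cells, where 32.0% of all genes were called (15.7% higher, 16.3% lower). After 7 days 32 were called, 28 higher and 4 lower, against 40.0% of all genes (23% higher, 17.0% lower). In untreated mice 14 were called, 11 higher and 3 lower, against 18.3% of all genes (8.18% higher, 10.2% lower). The called share of the collagens was thus 50.0%, 72.7% and 31.8% in the 3 comparisons, above the background in each, and as deposited the excess lay in genes higher in endothelial cells.

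Of those called, 13 of 22 after 21 days, 22 of 32 after 7 days and 5 of 14 in untreated mice differed by under 2-fold. The array medians of endothelial cells lay 0.08, 0.11 and 0.08 above those of tumour cells in the 3 comparisons. After each array's median was subtracted, 15 collagens were called after 21 days (8 higher, 7 lower), 22 after 7 days (18 higher, 4 lower) and 11 in untreated mice (7 higher, 4 lower). Normalizing the gene table by quantiles again left 13 calls after 21 days, 8 higher and 5 lower. These counts were not set against the share of all genes called under the same settings. They therefore do not show whether the excess of called collagens over all genes held there. Col4a1, Col4a2, Col15a1, Col18a1, Col13a1 and Col5a2 were called higher, and Col6a1, Col8a1 and Col4a5 lower, in all 3 comparisons both as deposited and with the medians subtracted. Col14a1 and Col9a2 were called higher in all 3 as deposited only.

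**Figure D2:**
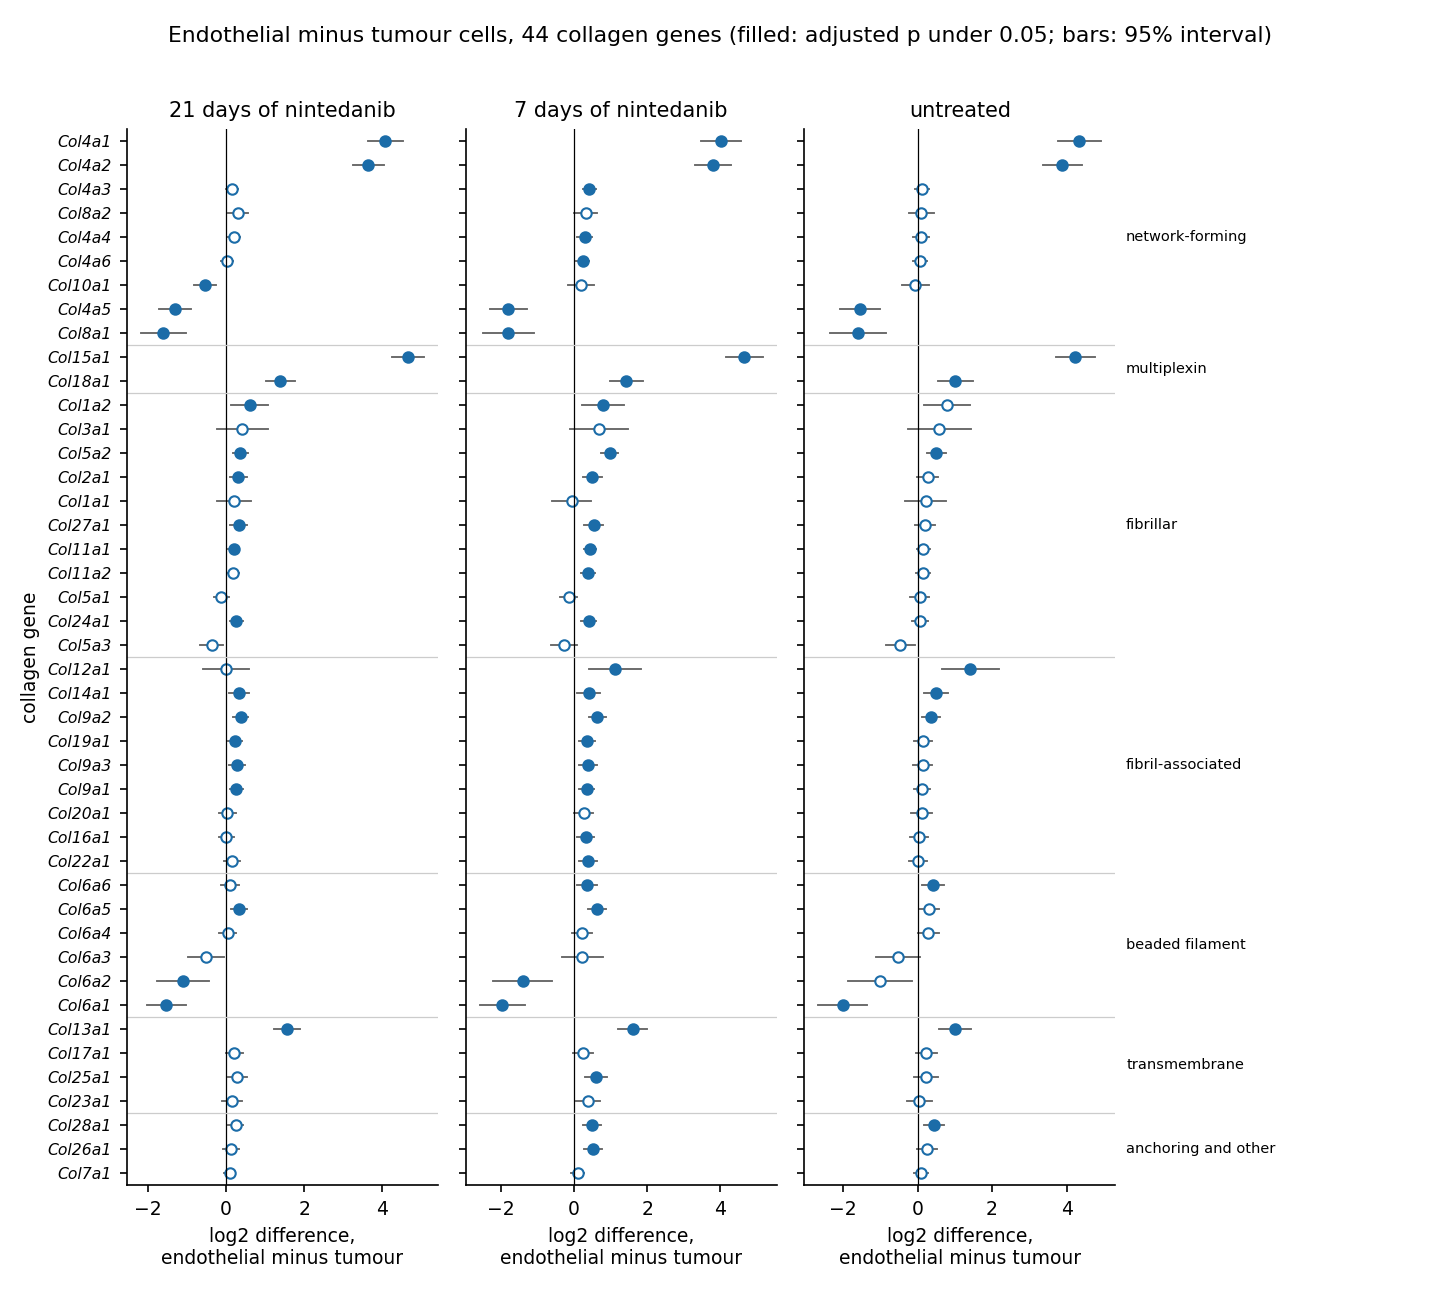
Log2 difference (endothelial minus tumour cells) of each of the 44 collagen genes after 21 days, after 7 days and without nintedanib, grouped by class. Bars are 95% intervals of limma's fit over all 23 arrays and filled points have an adjusted p under 0.05. Col4a1, Col4a2 and Col15a1 lie between 3.64 and 4.65, and no other collagen lies above 1.60 (Col13a1, 7 days).

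Col4a1 and Col4a2 encode the alpha 1 and alpha 2 chains that assemble into the common type IV collagen trimer. In endothelial cells Col4a1 was 11.24, 11.37, 10.98, 10.80 and 10.95 after 21 days, 10.96, 10.92 and 11.13 after 7 days, and 10.95, 11.21 and 11.46 without treatment. In tumour cells it was 7.03, 7.26, 6.86, 6.63 and 7.15 after 21 days, 7.21, 6.75, 7.23 and 6.77 after 7 days, and 6.15, 6.64 and 7.78 without treatment. Every endothelial array was above every tumour cell array, with the tumour cell arrays widest apart in the untreated group. The log2 difference was 4.08 ± 0.22 after 21 days (SE of limma's fit, adjusted p = 9.13e-12), 4.01 ± 0.26 after 7 days (4.11e-10) and 4.35 ± 0.28 without treatment (3.28e-10).

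Col4a2 ran in parallel. Its endothelial values were 10.17, 10.41, 9.94, 9.86 and 9.92 after 21 days, 10.06, 10.11 and 10.19 after 7 days, and 9.97, 10.47 and 10.60 without treatment. Tumour cells had 6.51, 6.31, 6.45, 6.40 and 6.44 after 21 days, 6.48, 6.43, 6.30 and 6.07 after 7 days, and 5.73, 6.40 and 7.24 without treatment. The cell types did not overlap, and in the untreated tumour cells the replicates stood in the same order as for Col4a1, with replicate 3 highest and replicate 1 lowest. Its log2 differences were 3.64 ± 0.19 after 21 days (limma, adjusted p = 7.83e-12), 3.80 ± 0.23 after 7 days (1.23e-10) and 3.89 ± 0.25 without treatment (2.68e-10).

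The 2 genes lie head to head on chromosome 8, and the pair is known for a shared promoter read in both directions. The transcript starts behind the windows below are 21 bases apart. As whole genes in RefSeq they overlap, from 11312805, where Col4a2 starts, to 11312889, where Col4a1 begins on the minus strand. Their windows of 300 bases, taken from RefSeq for GRCm38.p6, are shown because this pair was high together in endothelial cells. Each is written in its own gene's direction, on the minus strand at chr8:11312777-11313076 for Col4a1 and on the plus strand at chr8:11312555-11312854 for Col4a2. Capitals mark the 78 bases that both windows hold, and the capital stretch of one is the reverse complement of the other.
Col4a1: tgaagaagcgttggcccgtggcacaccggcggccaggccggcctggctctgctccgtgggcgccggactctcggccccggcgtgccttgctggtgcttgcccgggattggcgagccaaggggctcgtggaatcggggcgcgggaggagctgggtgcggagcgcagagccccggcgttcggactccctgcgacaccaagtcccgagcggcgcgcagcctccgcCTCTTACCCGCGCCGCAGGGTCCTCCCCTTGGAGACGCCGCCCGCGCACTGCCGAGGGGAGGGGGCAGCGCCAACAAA
Col4a2: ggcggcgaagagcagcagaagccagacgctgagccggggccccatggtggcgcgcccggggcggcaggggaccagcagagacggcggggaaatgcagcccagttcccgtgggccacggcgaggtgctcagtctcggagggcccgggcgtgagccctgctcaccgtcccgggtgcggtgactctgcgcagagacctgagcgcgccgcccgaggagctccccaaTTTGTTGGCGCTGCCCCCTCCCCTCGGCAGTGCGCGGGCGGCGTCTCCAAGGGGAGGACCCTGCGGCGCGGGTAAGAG
The windows have a GC content of 74.0% (Col4a1) and 73.7% (Col4a2). The letters GGGCGG or their reverse complement CCGCCC, the core of a GC box, occur once in the Col4a1 window and 3 times in the Col4a2 window. The letters CCAAT or ATTGG occur once in each, and TATAAA or TTTATA in neither. RefSeq windows were found for 35 of the 44 collagen genes, 38 windows in all. GGGCGG or CCGCCC was in 60.5% of these, against 35.7% of all 32851 windows, CCAAT or ATTGG in 34.2% against 37.4%, and TATAAA or TTTATA in 13.2% against 13.6%. A match describes the letters only.

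The other type IV chains did not follow this pair. Col4a5, an alpha chain of the type IV networks of kidney and skin, was lower in endothelial cells: 5.0, 5.49, 5.67, 5.45 and 5.12 after 21 days, 5.02, 4.84 and 4.86 after 7 days and 5.99, 5.14 and 5.03 without treatment. Tumour cells had 6.30, 6.21, 6.98, 6.53 and 7.25 after 21 days, 6.88, 6.50, 6.82 and 6.61 after 7 days and 6.85, 7.13 and 6.78 without treatment. No endothelial array reached the lowest tumour cell array. The log2 differences were -1.31 ± 0.20 after 21 days (limma, adjusted p = 4.27e-05), -1.79 ± 0.24 after 7 days (1.27e-05) and -1.54 ± 0.26 without treatment (0.000207). Col4a6, its neighbour on the X chromosome in the opposite direction, Col4a3 and Col4a4 differed by 0.02 to 0.41 and were called after 7 days only.

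Among the other network-forming collagens, Col8a1 encodes a chain of type VIII collagen, found around vessels and in the cornea. Endothelial cells had 6.77, 7.41, 8.23, 8.05 and 7.53 after 21 days, 6.62, 7.94 and 8.20 after 7 days and 8.04, 7.84 and 7.14 without treatment. Tumour cells had 9.27, 8.93, 9.34, 9.12 and 9.34 after 21 days, 9.69, 9.41, 9.37 and 9.08 after 7 days and 9.07, 9.48 and 9.26 without treatment. All endothelial arrays were below all tumour cell arrays, and the endothelial arrays were the more scattered. The log2 differences were -1.60 ± 0.28 after 21 days (limma, adjusted p = 0.00016), -1.80 ± 0.33 after 7 days (0.000373) and -1.60 ± 0.36 without treatment (0.00284). Col10a1, the type X chain of cartilage growth plates, was lower in endothelial cells after 21 days only (-0.54 ± 0.14, adjusted p = 0.00525), where its tumour cell values had the highest mean of the 3 groups.

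The multiplexin Col15a1 encodes type XV collagen, which links basement membranes to the matrix beneath. It was 9.96, 9.80, 9.19, 9.87 and 10.14 in endothelial cells after 21 days, 10.16, 9.84 and 9.85 after 7 days, and 8.73, 10.07 and 9.30 without treatment. In tumour cells it was 5.13, 5.12, 4.76, 5.48 and 5.21 after 21 days, 5.30, 5.28, 5.17 and 5.44 after 7 days, and 5.02, 5.24 and 5.12 without treatment. The cell types stood apart in every array, and the lowest endothelial value was that of untreated replicate 1, one of the arrays high in macrophage markers. Its log2 differences were 4.65 ± 0.20 after 21 days (limma, adjusted p = 2.08e-13), 4.65 ± 0.24 after 7 days (7.08e-12) and 4.24 ± 0.25 without treatment (1.05e-10).

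Col18a1 encodes type XVIII collagen, the source of the fragment endostatin. Endothelial cells had 9.28, 9.17, 8.87, 8.44 and 8.55 after 21 days, 9.53, 9.10 and 9.31 after 7 days and 8.54, 8.98 and 8.88 without treatment. Tumour cells had 7.52, 7.64, 7.57, 7.25 and 7.40 after 21 days, 8.08, 7.58, 7.99 and 7.88 after 7 days and 7.76, 8.26 and 7.34 without treatment. The gap was narrower than for Col15a1 but no arrays of the cell types overlapped. The log2 differences were 1.39 ± 0.17 after 21 days (limma, adjusted p = 4.55e-06), 1.43 ± 0.21 after 7 days (3.67e-05) and 1.02 ± 0.23 without treatment (0.00287).

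**Figure D3:**
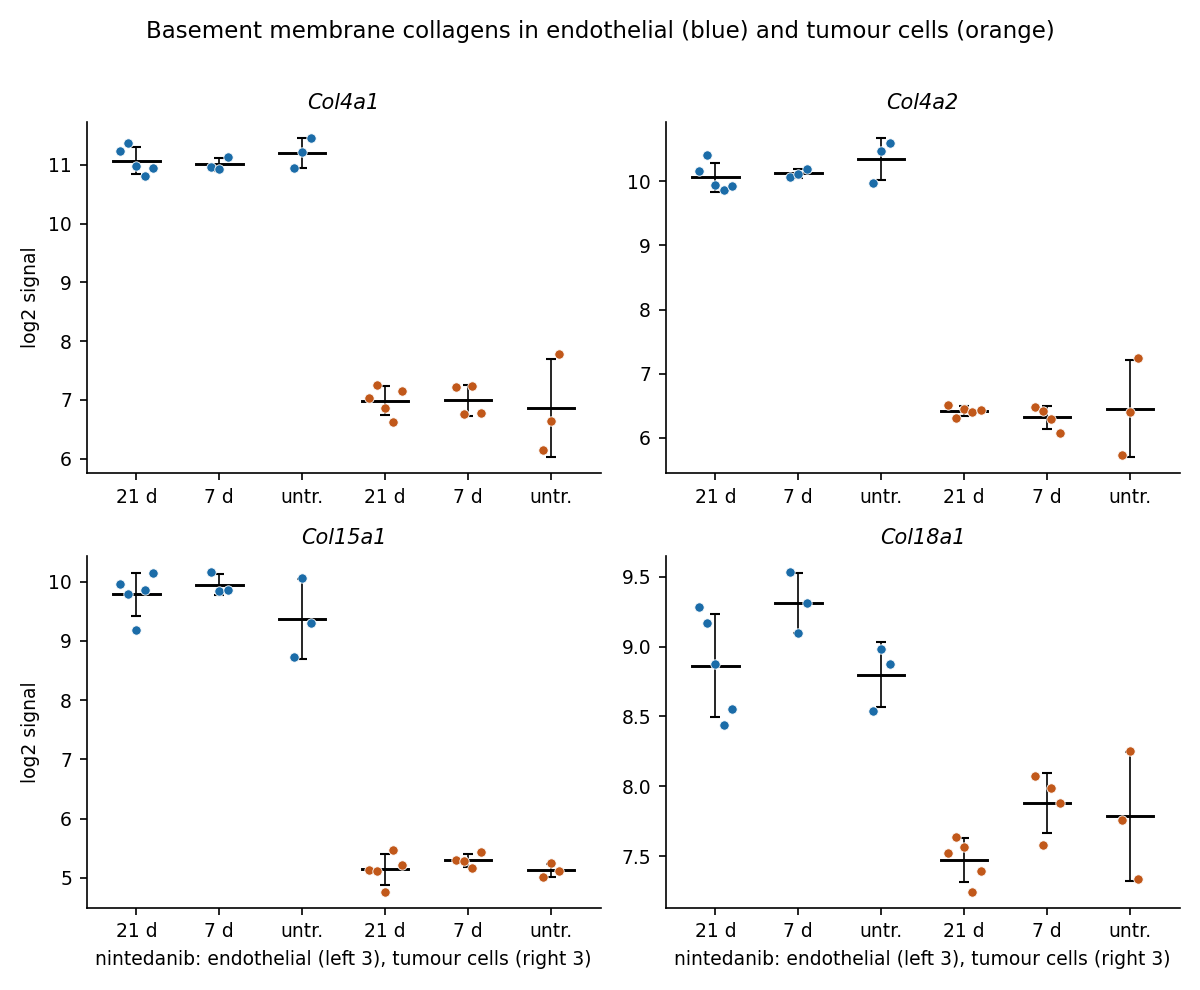
Log2 signal of Col4a1, Col4a2, Col15a1 and Col18a1 in each array, in endothelial cells (blue) and tumour cells (orange) after 21 or 7 days of nintedanib or untreated. Points are arrays, horizontal lines are group means and bars are SD; the axes do not start at 0. In all 4 genes every endothelial array lies above every tumour cell array.

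The transmembrane collagen Col13a1, whose product sits in the plasma membrane at adhesion sites, was 6.23, 6.44, 5.72, 7.00 and 6.17 in endothelial cells after 21 days, 6.19, 6.32 and 6.44 after 7 days and 5.59, 5.98 and 5.83 without treatment. All 12 tumour cell arrays lay between 4.57 and 4.99, below every endothelial array. The log2 differences were 1.56 ± 0.16 after 21 days (limma, adjusted p = 2.63e-07), 1.60 ± 0.19 after 7 days (3.14e-06) and 1.01 ± 0.20 without treatment (0.0013). Col17a1, the transmembrane collagen of epithelial hemidesmosomes, was low in both cell types, at 4.54 to 5.14 in endothelial arrays and 4.30 to 4.83 in tumour cell arrays, and was called in no comparison. Col7a1, the anchoring fibril collagen of skin, lay at 5.47 to 5.94 in endothelial arrays and 5.34 to 5.85 in tumour cell arrays and was called in none.

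Type VI collagen is assembled from 3 different chains, and its genes Col6a1 and Col6a2 are neighbours on chromosome 10. Col6a1 was 6.59, 7.47, 7.54, 6.74 and 7.04 in endothelial cells after 21 days, 7.21, 7.79 and 7.43 after 7 days and 7.68, 6.76 and 6.73 without treatment. Tumour cells had 8.95, 8.59, 8.66, 7.89 and 8.90 after 21 days, 9.66, 9.43, 9.34 and 9.34 after 7 days and 8.55, 9.59 and 9.04 without treatment. The highest endothelial array stayed just below the lowest tumour cell array, 21-day replicate 4. The log2 differences were -1.52 ± 0.24 after 21 days (limma, adjusted p = 7.19e-05), -1.97 ± 0.29 after 7 days (4.19e-05) and -2.01 ± 0.31 without treatment (0.000101).

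Col6a2 showed the same direction with more scatter. It was 5.54, 7.11, 6.92, 5.42 and 5.83 in endothelial cells after 21 days, 7.33, 6.36 and 7.25 after 7 days and 6.52, 6.90 and 6.44 without treatment. In tumour cells, whose arrays are given below with the treatment, it was 6.39 to 7.75 after 21 days, 8.32 to 8.44 after 7 days and 7.06 to 8.09 without treatment. The cell types overlapped after 21 days and not in the other 2 groups. The difference was -1.09 ± 0.32 after 21 days (limma, adjusted p = 0.0131), -1.41 ± 0.38 after 7 days (0.00756) and -1.0 ± 0.41 without treatment (0.103, 95% interval -1.86 to -0.14), so the untreated difference was not called. Col6a3, the third chain of the trimer, was called in none of the 3, with differences of -0.51 after 21 days (interval -0.97 to -0.05), 0.23 after 7 days (-0.33 to 0.78) and -0.53 without treatment (-1.12 to 0.07).

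The fibrillar genes differed less. Col1a1, which encodes the alpha 1 chain of type I collagen, had differences of 0.21 after 21 days (95% interval -0.22 to 0.64), -0.07 after 7 days (-0.59 to 0.45) and 0.22 without treatment (-0.34 to 0.78), none of them called. Its partner chain Col1a2 was 5.91, 6.95, 7.13, 6.07 and 6.18 in endothelial cells after 21 days, 6.80, 6.23 and 7.08 after 7 days and 6.09, 6.58 and 6.30 without treatment. Tumour cells had 5.59, 5.94, 5.85, 6.15 and 5.70 after 21 days, 5.75, 5.55, 5.95 and 6.43 after 7 days and 5.40, 5.69 and 5.50 without treatment. The 2 cell types overlapped in the treated groups and not in the untreated one. The log2 difference of Col1a2 was 0.60 ± 0.23 after 21 days (limma, adjusted p = 0.0469), 0.79 ± 0.27 after 7 days (0.0278) and 0.79 ± 0.29 without treatment (0.0646). Over 32 alternatives the Col1a2 call was lost in 15 after 21 days, among them without the 3 macrophage-high arrays and with the medians subtracted, and in 7 after 7 days. Col3a1, the type III chain, was 6.70, 7.45, 8.06, 6.92 and 6.71 in endothelial cells after 21 days, 7.54, 6.56 and 7.41 after 7 days and 6.76, 7.67 and 7.51 without treatment. Tumour cells had 6.50, 6.85, 6.65, 6.73 and 7.0 after 21 days, 6.57, 6.32, 6.22 and 6.86 after 7 days and 5.76, 6.74 and 7.70 without treatment. The cell types overlapped in all 3 groups and Col3a1 was called in none. Col5a1, a type V chain, was called in none either, with 5.83 to 6.41 over the endothelial arrays and 6.0 to 6.47 over the tumour cell arrays.

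Col5a2, a chain of the minor fibrillar type V collagen, was higher in endothelial cells in all 3 comparisons, by 0.37 ± 0.09 after 21 days (limma, adjusted p = 0.00522), 0.97 ± 0.11 after 7 days (2.33e-06) and 0.51 ± 0.12 without treatment (0.00519). Of the 11 fibrillar genes 6, 7 and 1 were called higher after 21 days, after 7 days and without treatment, and none lower. These were 54.5%, 63.6% and 9.09% of the class, beside 15.7%, 23% and 8.18% of all genes called higher. The untreated share was thus near that of all genes. The fibril-associated Col12a1, a type XII collagen that coats type I fibrils, was 4.41, 4.88, 5.68, 5.28 and 5.24 in endothelial cells after 21 days, 5.45, 5.42 and 6.57 after 7 days and 5.19, 5.76 and 5.61 without treatment. In tumour cells it was 4.61, 5.24, 4.88, 5.96 and 4.81 after 21 days, 4.96, 4.46, 4.15 and 5.18 after 7 days and 4.02, 4.07 and 4.22 without treatment. The cell types were apart without treatment and after 7 days, and overlapped after 21 days. Its difference had a 95% interval of -0.59 to 0.58 after 21 days and was 1.13 ± 0.34 after 7 days (limma, adjusted p = 0.0133) and 1.42 ± 0.36 without treatment (0.00825). Of the 9 fibril-associated genes 5, 8 and 3 were called higher in the 3 comparisons, and none lower, beside the same shares of all genes. Both class counts are as deposited. With the medians subtracted, only 8 collagens of all classes were called higher after 21 days. Among them were Col4a1, Col4a2, Col15a1, Col18a1, Col13a1 and Col5a2, so most of the 21-day calls in these 2 classes were lost.

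The markers of other vessel-associated and stromal cells were set beside these values. All 12 pericyte and smooth muscle markers were higher on average in endothelial than in tumour cells in each of the 3 comparisons, with 8 called after 21 days, 10 after 7 days and 8 without treatment. Rgs5, a pericyte gene, lay between 4.96 and 8.72 in endothelial arrays and between 3.70 and 4.16 in tumour cell arrays. Of 13 fibroblast markers 4, 5 and 4 were called lower in endothelial cells and 0, 3 and 1 higher. Of all genes, 16.3%, 17.0% and 10.2% were called lower in these comparisons and 15.7%, 23% and 8.18% higher. The shares of fibroblast markers called higher were thus near or below those of all genes. The called pericyte and smooth muscle markers, all higher, made up 66.7%, 83.3% and 66.7% of their list. The part of such cells in the endothelial collagen values was not tested. Without the 3 endothelial arrays highest in macrophage markers, a choice made after seeing the data, 23, 32 and 15 collagens were called. The share of all genes called in that fit was not set beside these counts. In it, the difference of Col4a1 was 4.20 after 21 days and 4.48 without treatment and that of Col15a1 4.83 and 4.56.

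Within the tumour cells few collagens changed with nintedanib. After 7 days 1 of the 44, Col1a1, was called against untreated cells, where 0.507% of all genes were called (0.396% higher), and 4 had an unadjusted p under 0.05, as did 11% of all genes. After 21 days against untreated cells none was called by limma, where 0.0903% of all genes were, and 3 had an unadjusted p under 0.05, as did 10.1% of all genes. Between 21 and 7 days of treatment 2 were called, Col10a1 higher and Col1a1 lower after 21 days, where 1.22% of all genes were called (0.622% higher, 0.597% lower). Another 4 had only an unadjusted p under 0.05, 6 in all, beside 11.9% of all genes. These comparisons share their arrays, each group entering 2 of them. The median log2 difference of the 44 collagens was -0.01 after 7 days and -0.04 after 21 days against untreated cells and -0.04 between 21 and 7 days, beside -0.01, -0.01 and -0.0024 over all genes.

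Col1a1 was 7.27, 7.07, 6.84, 6.99 and 6.90 in tumour cells after 21 days, 7.79, 7.58, 7.57 and 7.47 after 7 days, and 6.76, 6.93 and 7.17 without treatment. The 7-day arrays were above all others, and the 21-day arrays overlapped the untreated ones. The log2 difference was 0.65 ± 0.12 after 7 days against untreated cells (1.57-fold, limma, adjusted p = 0.0448), -0.59 ± 0.11 after 21 against 7 days (adjusted p = 0.0234) and 0.06 ± 0.12 after 21 days against untreated cells (95% interval -0.19 to 0.31). The 7-day call is near the threshold: it was lost when any 1 of 11 of the 12 tumour cell arrays was left out, with adjusted p between 0.0366 and 0.113 over the 12, and in the fit over all 23 arrays (adjusted p = 0.769), while the difference stayed between 0.55 and 0.76. The call between 21 and 7 days was lost on leaving out any 1 of 6 arrays (adjusted p 0.0168 to 0.0754 over the 12) and in the fit over all 23 arrays (adjusted p = 0.522). Fibroblast markers moved in part with Col1a1. The mean of 13 of them was 6.22 to 6.53 in tumour cells after 21 days, 6.46 to 6.68 after 7 days and 6.12 to 6.43 without treatment, so the 7-day and untreated arrays did not overlap. Of the 13, 8 were higher on average after 7 days than without treatment, with Fbln1 called (1.09, adjusted p = 0.0099), and between 21 and 7 days Fbln1 was called lower (-1.06) and Pdgfra higher (0.98 ± 0.16, adjusted p = 0.0163). The part of fibroblasts in the Col1a1 difference was not tested.

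The type VI genes Col6a1 and Col6a2 also had their highest mean after 7 days. Col6a2 was 7.75, 7.37, 7.23, 6.39 and 7.54 in tumour cells after 21 days, 8.43, 8.32, 8.36 and 8.44 after 7 days and 7.06, 8.09 and 7.71 without treatment, so that every 7-day array was above every other tumour cell array. Its difference between 21 and 7 days was -1.13 ± 0.25 (limma, adjusted p = 0.0535) and that between 7 days and untreated cells 0.77 ± 0.29 (adjusted p = 0.319), neither of them called. For Col6a1, the difference between 21 and 7 days was -0.84 ± 0.23 (adjusted p = 0.113). The 21-day arrays of both genes were lowest in replicate 4, at 6.39 for Col6a2 and 7.89 for Col6a1. The Col6a2 difference without that array was -0.92.

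Col10a1 was 5.70, 4.94, 5.11, 5.15 and 5.63 in tumour cells after 21 days, 4.51, 4.61, 4.59 and 4.45 after 7 days and 4.51, 5.0 and 4.92 without treatment. All 21-day arrays were above all 7-day arrays, with the untreated ones between and overlapping both. The difference between 21 and 7 days was 0.77 ± 0.16 (1.70-fold, limma, adjusted p = 0.0413), and that between 21 days and untreated cells 0.50 ± 0.17 (adjusted p = 0.367). The call was lost on leaving out any 1 of 8 of the 12 arrays, with adjusted p between 0.0349 and 0.114.

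Col12a1 had the largest difference of any collagen between 21-day treated and untreated tumour cells. Its 21-day values, 4.61 to 5.96, were above the untreated ones, 4.02 to 4.22, in every array. The difference of 1.00 ± 0.29 was not called (limma, adjusted p = 0.255, 95% interval 0.37 to 1.62). Col6a4, with 4.46 to 4.55 after 21 days against 4.20 to 4.44 without treatment, also did not overlap and was not called (0.21 ± 0.07, adjusted p = 0.329). Col4a1 and Col4a2 differed by 0.13 (-0.51 to 0.76) and -0.04 (-0.56 to 0.49) after 21 days and by 0.13 (-0.53 to 0.80) and -0.14 (-0.69 to 0.42) after 7 days against untreated cells. None of these was called.

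**Figure D4:**
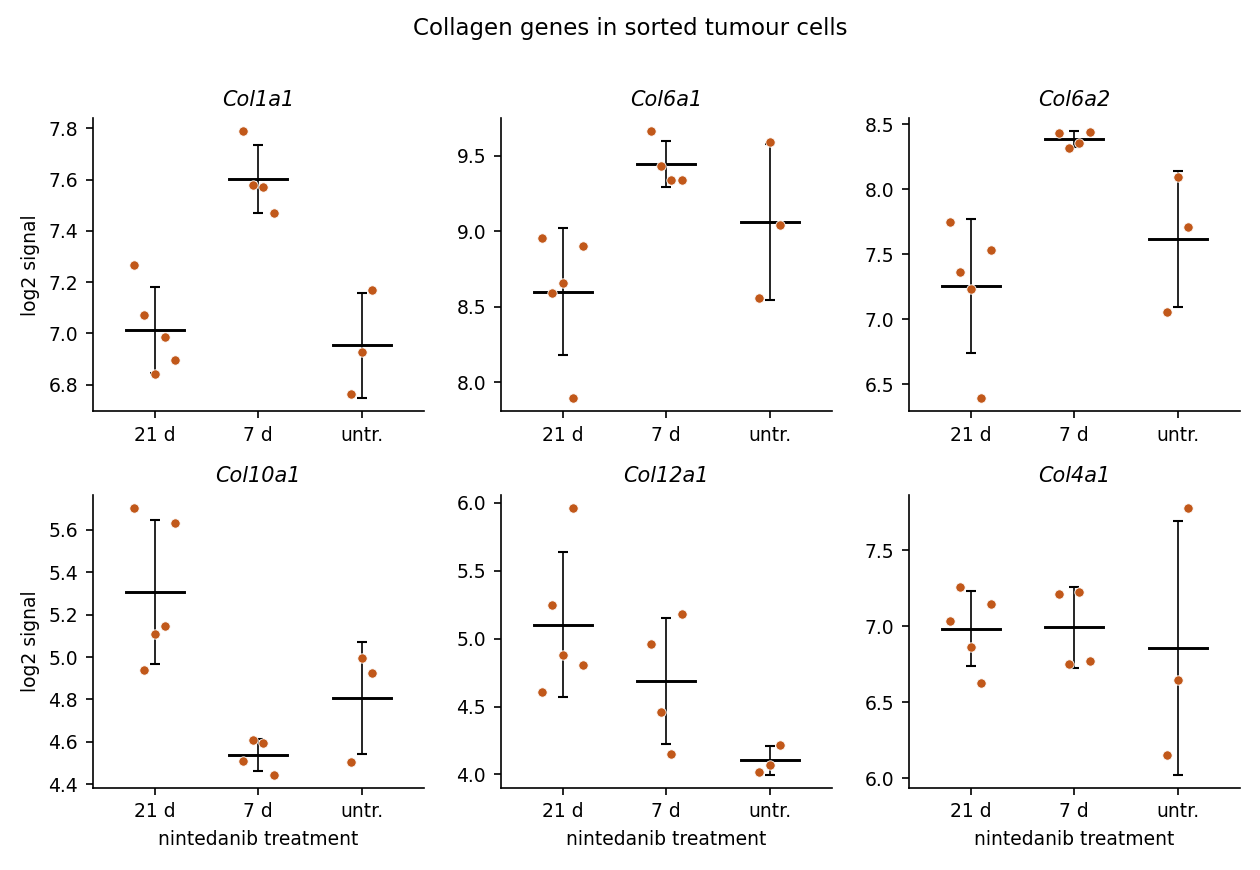
Log2 signal of 6 collagen genes in each tumour cell array after 21 or 7 days of nintedanib or untreated. Points are arrays, horizontal lines are group means and bars are SD; the axes do not start at 0. The 4 arrays of the 7-day group lie above all others for Col1a1 (7.47 to 7.79) and Col6a2 (8.32 to 8.44).

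Among the genes that make, modify and bind collagen, few changed in tumour cells with them. After 7 days against untreated cells the 23 genes of folding, modification and export, the 13 of procollagen cleavage and crosslinking, the 10 of receptors and uptake and the 11 of collagen degradation had no called gene. Of 14 genes of fibril-binding proteins 1 was called, Thbs1, which encodes thrombospondin 1, a matrix glycoprotein (1.65 ± 0.32, limma, adjusted p = 0.0454). Of 11 genes of the TGF-beta axis, a main inducer of collagen synthesis in fibroblasts, 1 was called, the receptor gene Tgfbr2 (0.74 ± 0.13, adjusted p = 0.0392).

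After 21 against 7 days the TGF-beta axis had 2 genes called lower, Pmepa1, an inhibitor of Smad signalling (-1.22 ± 0.20, limma, adjusted p = 0.0147), and Ltbp2, which encodes a matrix protein of the latent TGF-beta binding family (-1.48 ± 0.31, adjusted p = 0.0446). Bgn, encoding the proteoglycan biglycan, was lower (-0.75 ± 0.12, adjusted p = 0.0145), and Thbs2, encoding thrombospondin 2, was higher (1.39 ± 0.27, adjusted p = 0.0336). The 6 lists held no called gene after 21 days against untreated cells. Genes of the immediate early and dissociation list moved with the 7-day group too: all 18 were higher on average after 7 days than in untreated cells, 3 of them called, and all 18 were lower after 21 than after 7 days, 2 called. The mean of that list was 8.99 to 9.65 after 21 days, 9.55 to 9.95 after 7 days and 8.74 to 9.19 without treatment. The part of cell handling in the Col1a1 difference was not tested.

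In endothelial cells no collagen was called with nintedanib in any of the 3 comparisons by limma, and no gene of all 19938 was (0.0% in each). At an unadjusted p under 0.05 there were 0 collagens after 21 days against untreated cells, 4 after 7 days against untreated cells and 9 between 21 and 7 days, where 4.18%, 8.17% and 9.4% of all genes had such a p. All 4 were higher after 7 days and all 9 lower after 21 than after 7 days, and the 7-day arrays enter both. All genes with such a p leaned the same way, with 984 higher and 645 lower after 7 days against untreated cells. Between 21 and 7 days 816 were higher and 1059 lower. The median log2 difference of the 44 collagens was -0.01 after 21 days and 0.18 after 7 days against untreated cells and -0.20 between 21 and 7 days, beside 0.01, 0.06 and -0.04 over all genes.

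Col6a3 was 5.70, 6.0, 6.21, 5.97 and 5.67 in endothelial cells after 21 days, 6.38, 6.94 and 6.85 after 7 days and 5.85, 5.83 and 6.02 without treatment. All 7-day arrays were above all others. The difference was 0.83 ± 0.18 after 7 days against untreated cells (limma, adjusted p = 0.347) and -0.81 ± 0.16 after 21 against 7 days (adjusted p = 0.312). Col5a2 had the same pattern, with 4.49, 4.65, 4.73, 4.42 and 4.41 after 21 days, 5.13, 5.03 and 5.06 after 7 days and 4.5, 4.71 and 4.55 without treatment. Its differences were 0.48 ± 0.12 after 7 days against untreated cells (limma, adjusted p = 0.421) and -0.53 ± 0.11 after 21 against 7 days (adjusted p = 0.312). The difference between 21 and 7 days was called in the fit over all 23 arrays (adjusted p = 0.0215).

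Markers of other cells and of cell handling were compared among the endothelial groups. The mean of 13 fibroblast markers was 5.64 to 6.50 after 21 days, 6.11 to 6.86 after 7 days and 5.87 to 6.26 without treatment. Its 7-day arrays overlapped both other groups. The mean of 12 pericyte and smooth muscle markers was 5.84 to 6.12 after 21 days, 6.15 to 6.51 after 7 days and 5.77 to 6.25 without treatment. Its 7-day arrays were above the 21-day ones and overlapped the untreated ones. Rgs5 was 8.35 to 8.72 after 7 days, above the other 8 endothelial arrays. It was not called against untreated cells (limma, adjusted p = 0.608) or between 21 and 7 days (0.446). The mean of 17 macrophage markers was 4.73 to 7.32 after 21 days, 4.43 to 4.86 after 7 days and 5.36 to 7.34 without treatment. Here the 7-day arrays were below the untreated ones and overlapped the 21-day ones. The mean of 18 immediate early and dissociation genes was 8.69 to 9.36 after 21 days, 8.87 to 9.26 after 7 days and 8.11 to 8.48 without treatment. Both treated groups were above the untreated one and overlapped each other. Within the 7-day group, replicate 2 had the lowest fibroblast mean (6.11), the highest Col6a3 (6.94) and the lowest Col5a2 (5.03). The part of these cells and of cell handling in the Col6a3 and Col5a2 values was not tested.

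The collagens highest in endothelial cells over tumour cells were not called with treatment in endothelial cells. Col4a1 differed by -0.14 after 21 days (95% interval -0.49 to 0.21) and by -0.20 after 7 days (-0.59 to 0.19) against untreated cells, and Col4a2 by -0.29 (-0.66 to 0.09) and -0.23 (-0.64 to 0.19). Col15a1 differed by 0.42 (-0.22 to 1.06) and 0.58 (-0.13 to 1.30), Col18a1 by 0.06 (-0.40 to 0.53) and 0.51 (-0.01 to 1.04), and Col13a1 by 0.51 (-0.01 to 1.04) and 0.51 (-0.07 to 1.10). A doubling lies within both intervals of Col15a1 and Col13a1 and within the 7-day interval of Col18a1. Of the 6 lists of collagen-related genes none had a called gene in endothelial cells. Thbs1 differed by 2.13 ± 0.49 after 7 days against untreated cells (limma, adjusted p = 0.374).

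**Figure D5:**
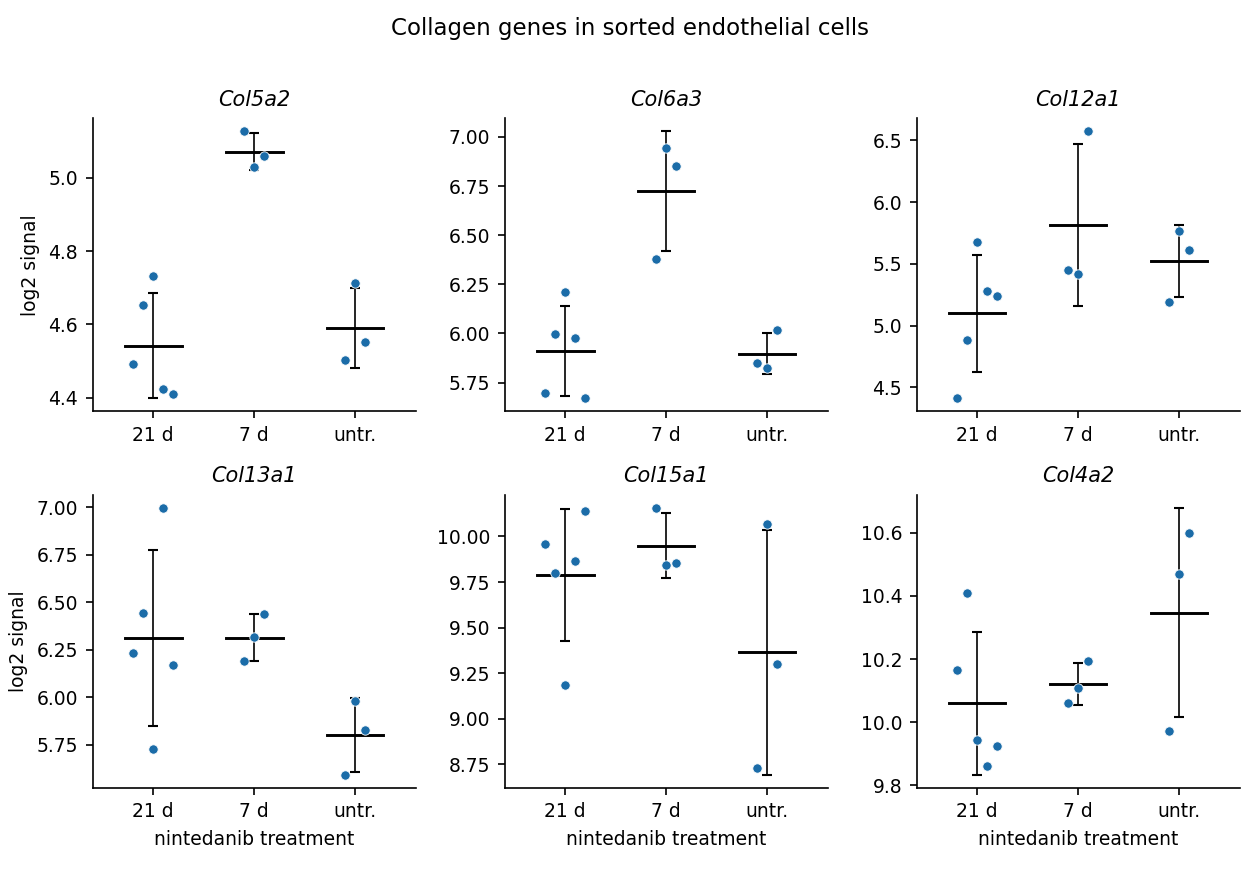
Log2 signal of 6 collagen genes in each endothelial array after 21 or 7 days of nintedanib or untreated. Points are arrays, horizontal lines are group means and bars are SD; the axes do not start at 0. For Col5a2 and Col6a3 the 3 arrays of the 7-day group lie above all others (5.03 to 5.13 and 6.38 to 6.94), and no gene was called in these cells.

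Whether nintedanib acted differently on collagens in the 2 cell types was tested as the difference of the effects in limma's fit over all 23 arrays. No collagen was called at 21 days, where 0.0% of all genes were, or at 7 days, where 0.0953% were. At an unadjusted p under 0.05 there were 3 collagens at 21 days (1 higher and 2 lower effects in endothelial cells) and 6 at 7 days, all higher, against 5.33% and 11% of all genes. Of all genes with such a p at 7 days, 1361 were higher and 842 lower. The largest of these collagen differences was Col12a1 at 21 days: its effect was -0.42 ± 0.33 in endothelial cells and 1.00 ± 0.29 in tumour cells, a difference of -1.42 ± 0.46 (adjusted p = 0.693). Col13a1 was on both lists, with differences of effect of 0.55 ± 0.26 at 21 days (adjusted p = 0.929) and 0.59 ± 0.28 at 7 days (0.444).

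Genes that make and remodel collagen were also compared between the cell types, where 32.0%, 40.0% and 18.3% of all genes were called after 21 days, after 7 days and without treatment. Of 23 genes of folding, modification and export, 6, 5 and 3 were higher and 6, 6 and 5 lower in endothelial cells in these 3 comparisons, 52.2%, 47.8% and 34.8% of the list. Colgalt2, a collagen galactosyltransferase, had the largest difference of them, 3.16 ± 0.28, 3.71 ± 0.34 and 3.37 ± 0.36 (limma, adjusted p = 3.71e-08, 7.43e-08 and 8.89e-07). Serpinh1, the collagen chaperone HSP47, was higher by 1.78, 1.16 and 1.29. The lysyl hydroxylases went opposite ways, Plod1 higher in endothelial cells (1.51, 1.94 and 2.67) and Plod2 lower (-1.86, -2.06 and -1.67) in the same 3 comparisons, all called.

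Of 13 genes of procollagen cleavage and crosslinking, 3, 2 and 1 were higher and 5, 6 and 3 lower, 61.5%, 61.5% and 30.8% of the list. The procollagen protease gene Tll1 was higher by 1.94, 2.17 and 2.12, and Loxl3, a lysyl oxidase that crosslinks collagen, was called lower in all 3 (-1.80 ± 0.27, -2.01 ± 0.32 and -1.56 ± 0.35). Of 14 fibril-binding genes 3, 5 and 1 were higher and 5, 3 and 3 lower (57.1%, 57.1% and 28.6%), among them Sparc, a collagen-binding glycoprotein of basement membranes, higher by 1.08, 1.01 and 1.28, and Fn1, encoding fibronectin, lower in all 3 (-1.28 ± 0.32, -1.29 ± 0.38 and -1.30 ± 0.41).

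Of 10 collagen receptor and uptake genes 4, 3 and 3 were higher and 3, 1 and 2 lower in endothelial cells. Their called shares, 70.0%, 40.0% and 50.0%, equalled that of all genes after 7 days. The integrin genes Itga2 and Itga1, which encode subunits of collagen-binding integrins, were higher in endothelial cells, by 2.20, 2.37 and 3.28 for Itga2 and by 1.23, 1.14 and 1.5 for Itga1. Ddr1, a receptor kinase for collagen on epithelial cells, was lower (-1.10 ± 0.23, -1.68 ± 0.27 and -1.58 ± 0.29), and all 9 of these differences were called. Of 11 degradation genes 2, 3 and 1 were higher and 3, 2 and 3 lower (45.5%, 45.5% and 36.4%), with Mmp3 (stromelysin) lower in each comparison (-1.98 ± 0.44, -2.35 ± 0.53 and -2.91 ± 0.56). In the TGF-beta axis 3, 2 and 3 of 11 were higher and 3, 7 and 3 lower (54.5%, 81.8% and 54.5%): Tgfb1 was higher by 2.71, 2.21 and 2.17, and Tgfb3 was lower (-2.73 ± 0.48, -1.84 ± 0.59 and -2.64 ± 0.63).

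Several members of low signal were called after 7 days, where the cell types did not overlap. Col24a1, a fibrillar chain, lay at 4.27 to 4.54 in endothelial cells after 21 days, 4.32 to 4.64 after 7 days and 4.32 to 4.36 without treatment, against 4.08 to 4.28, 3.96 to 4.28 and 4.15 to 4.41 in tumour cells of the same groups. It was called after 21 days (0.26 ± 0.08) and 7 days (0.40 ± 0.10). Col26a1, listed with the anchoring and other collagens, lay at 5.41 to 5.66, 5.63 to 5.95 and 5.46 to 5.87 in endothelial cells, against 5.26 to 5.48, 5.19 to 5.42 and 5.20 to 5.74 in tumour cells, and was called after 7 days (0.52 ± 0.12). Col6a6, an alternative type VI chain, lay at 5.19 to 5.65, 5.54 to 5.82 and 5.44 to 6.09 in endothelial cells, against 5.24 to 5.42, 5.19 to 5.41 and 5.23 to 5.41 in tumour cells, and was called after 7 days (0.36 ± 0.13) and without treatment (0.43 ± 0.14). The differences of all 3 were under 2-fold.

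Col4a3 and Col11a2 were also low. Col4a3 lay at 4.45 to 4.75, 4.66 to 4.94 and 4.48 to 4.62 in endothelial cells, against 4.29 to 4.49, 4.38 to 4.47 and 4.34 to 4.47 in tumour cells. Col11a2, a fibrillar chain of cartilage, lay at 5.02 to 5.33, 5.40 to 5.55 and 5.12 to 5.39 in endothelial cells, against 4.92 to 5.15, 4.96 to 5.17 and 5.06 to 5.20 in tumour cells. Both were called after 7 days only (0.41 ± 0.09 and 0.38 ± 0.09), where their arrays did not overlap.

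The remaining 19 collagens, those not named by the rule for values in every array, had mean levels from 3.50 to 6.15 over all arrays and none was called in a treatment comparison. Between the cell types their differences ran from -0.47 to 0.64. Of these, Col9a2, a fibril-associated chain of type IX collagen, and Col14a1 were called higher in endothelial cells in all 3 comparisons, by 0.38, 0.64 and 0.37 and by 0.34, 0.40 and 0.50. Over all 44 collagens the median residual SD was 0.19 in endothelial and 0.15 in tumour cells, beside 0.26 and 0.16 over all genes. Some brighter members scattered far more within a group. The SD was 0.97 for Col3a1 and 0.83 for Col4a1 in untreated tumour cells, and 0.85 for Col8a1 in 7-day endothelial cells.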

How the data were processed

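RNA of sorted endothelial and tumour cells was amplified with NuGEN kits and hybridised to Affymetrix arrays, per the labels' protocols. The deposited table holds log2 values that the authors normalized by RMA with the oligo package, per the submitters' processing notes, which give no versions. RMA subtracts background, sets all arrays to one distribution and summarises probes, so it compresses low signals and leaves no zeros. The sources used here give no detection calls and no build of the annotation.

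Of 35556 probe clusters, 21789 named 1 gene in the platform annotation, and the cluster with the highest mean was kept for each of 19938 genes. Col6a5 and Col6a6 had 2 clusters. Groups were compared with limma 3.58.1 in R 4.3.3 (lmFit and eBayes), treatments within each cell type and cell types over all 23 arrays, with Benjamini-Hochberg adjustment over all genes. Calls were made where the adjusted p was under 0.05. The fits were also run on simulated data with independent normal noise and known changes. Uneven content of other cells was not simulated, and the recovery rates are not given here.

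Values by array, or for some genes and groups only their range, are given for a panel of 16 collagens, for those called with treatment, for the 6 largest called differences in each direction between cell types, and, where none was called, for the 3 of smallest p in each direction. Collagen members and all gene lists were chosen with earlier results of these data known. Alternatives covered the arrays in the fit, a filter on dim genes, the prior variance, array weights, clusters per gene, normalization, the replicate number as a block and leaving out each array.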

Additional observations from a re-analysis of the deposited data

Results flagged for a closer look

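In 6 of 75 tests of a collagen in a group of 4 or 5 arrays, 1 array lay far from the others by Dixon's test, which chance gives in about 1 of 20 groups. In endothelial cells after 21 days, Col7a1 was low in replicate 4 (5.49, the nearest array at 5.62), Col17a1 was high in replicate 3 (4.96, nearest 4.70) and Col10a1 was low in replicate 3 (4.43, nearest 4.77). In tumour cells after 21 days, replicate 1 was high for Col7a1 (5.65, nearest 5.50) and for Col11a2 (5.15, nearest 4.99). In tumour cells after 7 days, Col17a1 was low in replicate 4 (4.46, nearest 4.64). Endothelial replicates 3 and 4 after 21 days are the ones high in macrophage markers (7.32 and 6.56), and their part in these values was not tested.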

How the results depend on the processing

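Col4a1, Col4a2, Col15a1, Col18a1, Col13a1, Col4a5, Col6a1 and Col8a1 kept their calls between the cell types under all 32 alternatives in each of the 3 comparisons. No value changed sign, where direction was scored only if one of the fits made a call. The count of collagens called between the cell types after 21 days (22) was 13 with quantile normalization again and 14 to 25 leaving out 1 array, with the 14 reached without tumour cell 21-day replicate 2. Leaving out 1 array gave 24 to 34 after 7 days (32) and 11 to 15 in untreated mice (14). The shares of all genes called under these alternatives were not set beside the counts. In tumour cells the count after 7 days against untreated cells (1) was 0 in one fit over all 23 arrays, with a trend in the prior variance, with quantile normalization again and under the replicate block, and 0 to 1 leaving out 1 array. Between 21 and 7 days (2) it was 1 in one fit over all arrays, 0 with the replicate block and 0 to 3 leaving out 1 array. In endothelial cells the count between 21 and 7 days (0) was 1 in one fit over all arrays. The other counts stayed at 0 when 1 array was left out.

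The labels do not say whether a replicate number marks one tumour. Deviations of same-numbered arrays correlated by -0.10 to 0.08 among tumour cell groups, -0.15 to 0.11 among endothelial groups and -0.11 to 0.06 across the cell types, and the numbers were not used as pairs. These correlations do not show whether arrays share a tumour. Across the cell types the replicate block was random, and it left 22, 32 and 14 collagens called. Within a cell type the number was a fixed factor. With this factor Col1a1 had an adjusted p (limma) of 0.108 after 7 days against untreated tumour cells. Between 21 and 7 days it was 0.0933 for Col1a1 and 0.146 for Col10a1. Among tumour cells only the 21-day group has a replicate 5. The differences between 21 and 7 days with the factor, -0.56 for Col1a1 and 0.69 for Col10a1, equalled those without that array. Col6a2 between 21 and 7 days was called with the dim filter (0.0345), the trend (0.0328), array weights (0.0286) and quantile normalization (0.0437). The cause of these changes was not tested. Groups of 3 to 5 arrays limit the precision. Another background correction, a detection filter and a slide block were not run, since the table holds normalized values only.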
